A study of Mus musculus with 16 samples.

Results

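The miR-26 family was followed in RAW264.7 cells, a macrophage-like line from a mouse. Its 2 members on the array, mmu-miR-26a-5p and mmu-miR-26b-5p, were taken by name from the microRNA (miRNA) spots of each array, and they are 2 of the 1247 mouse miRNAs the array measures. The study put RNA from 16 cultures on single-colour Agilent miRNA arrays, in 4 groups of 4. Media cells were cultured for 48 h in complete medium alone. Th2 cells spent those 48 h in medium with 10 ng/ml of interleukin-4 (IL-4) and interleukin-13 (IL-13), the cytokines of T helper 2 cells. Media_IL33 and Th2_IL33 cells were cultured in the same 2 ways, washed, and given recombinant mouse interleukin-33 (IL-33, 20 ng/ml) for 4 h. For Media and Th2 cells the same 4 h are recorded without IL-33. The 4 replicates of a group come from 4 experiments that the series description calls independent. All groups are the same unmodified line, so the arrays describe 1 transformed line and not primary macrophages.

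A miRNA guides Argonaute proteins to messenger RNAs, mostly through its seed, bases 2 to 8 from the 5′ end, so miRNAs with 1 seed share most predicted targets. The miR-26 family is known for repressing Ezh2, the histone methyltransferase of Polycomb repressive complex 2, and for being repressed by the transcription factor Myc in B cell lymphoma. Each miR-26 hairpin lies inside a gene for a small C-terminal domain phosphatase. IL-4 and IL-13 signal through STAT6 and drive macrophages into the state called alternative activation, and IL-33 is an alarmin that signals through the receptor ST2.

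The sequences are shown first because they set how far the array can tell the members apart. The mature sequences are those of RefSeq (assembly GRCm38.p6), with the seed in capitals.
mmu-miR-26a-5p: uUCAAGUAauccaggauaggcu
mmu-miR-26b-5p: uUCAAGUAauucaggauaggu
Both seeds read UCAAGUA, and of 1679 named mouse mature miRNAs in the RefSeq table only these 2 carry it. Counted from 1 at the 5′ end, miR-26a-5p has 22 bases and miR-26b-5p has 21, and they are identical over bases 1 to 10. Over the 21 positions compared without a gap, 19 bases were identical and 2 differed, C11U and C21U (miR-26a-5p first). mmu-miR-26a-5p is made from 2 loci. The file headers use the mouse build mm9, and there the 16-base probe of miR-26a-5p maps to chr9:118940935-118940950 and chr10:126432605-126432620. The mapping given for the 20-base probe of miR-26b-5p is chr1:74440900-74440918, which holds fewer positions than the probe has bases. RefSeq places the hairpin genes Mir26a-1, Mir26a-2 and Mir26b within the spans of Ctdspl, Ctdsp2 and Ctdsp1. Whether each lies in an exon or an intron was not analysed here.

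Each member was read by 2 probes, and each probe was printed in about 20 spots. The probes are shown 5′ to 3′ as DNA, as the scanner files give them, with capitals at the bases that pair with positions 11 and 21 of the miRNA.
miR-26a-5p, 15-base probe: aGcctatcctgGatt
miR-26a-5p, 16-base probe: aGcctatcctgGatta
miR-26b-5p, 19-base probe: AcctatcctgAattacttg
miR-26b-5p, 20-base probe: AcctatcctgAattacttga
The probes of miR-26a-5p pair with its bases 8 to 22 and 7 to 22. Those of miR-26b-5p pair with its bases 3 to 21 and 2 to 21. Both differing bases lie under every probe, so the other member would meet each probe with 2 bases that are not its complement. On the probes of miR-26a-5p these are G opposite U, and the last base would also be unpaired. On the probes of miR-26b-5p they are A opposite C. How much of each signal comes from the other member was not tested.

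Both members were called detected on 16 of 16 arrays, and both were dim. Signals were expressed as relative signal, a multiple of the array's own 75th percentile, which was taken over the 178 miRNAs that all arrays detected. That percentile stood at an intensity of 427 to 654 across arrays, and 206 to 256 miRNAs were detected per array. The 4 probes read mean intensities from 31.9 (19-base probe of miR-26b-5p, Media 2) to 135 (16-base probe of miR-26a-5p, Th2_IL33 2), and no spot on any array was saturated. Of the spots of the 19-base probe, 60% were well above background on Media 2, and of those of the 15-base probe 75% were on that array. The median coefficient of variation between spots of a probe was 17.5% for the 15-base probe, 10.8% for the 16-base probe, 12.8% for the 19-base probe and 9.84% for the 20-base probe. Arrays correlated with their own group at a median of 0.874 to 0.991, and Media 3 was the lowest. Media 1, Media 3 and Th2_IL33 2 stood apart in earlier results of these data, and results that change without them are given both ways. Media 2 is not among these 3, although it had the lowest percentile intensity (427), the fewest miRNAs detected (206) and the most outlier spots (3929). The macrophage miRNAs miR-223-3p, miR-142a-3p, miR-142a-5p and miR-21a-5p were detected on all arrays. Of 16 marker miRNAs of liver, red blood cells, muscle, nerve, endocrine cells, epithelium, endothelium and lymphocytes only miR-206-3p was detected, on 11 arrays. The summed relative signal of those 16 was 0.106 to 0.144 in Media, 0.102 to 0.121 in Th2, 0.0818 to 0.142 in Media_IL33 and 0.0563 to 0.106 in Th2_IL33.

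mmu-miR-26a-5p stood higher in cells grown with IL-4 and IL-13. In replicates 1 to 4 its relative signal in Media was 0.225, 0.247, 0.175 and 0.263, with a mean of 0.227 ± 0.0384 (SD, n = 4). In Th2 it was 0.373, 0.347, 0.313 and 0.222, with a mean of 0.314 ± 0.0659 (SD, n = 4). Th2 1, 2 and 3 thus lay above every Media array, and Th2 4 lay inside the Media range. In Media_IL33 it was 0.179, 0.168, 0.231 and 0.210, with a mean of 0.197 ± 0.0286 (SD, n = 4). In Th2_IL33 it was 0.270, 0.350, 0.244 and 0.264, with a mean of 0.282 ± 0.0466 (SD, n = 4). Every Th2_IL33 array lay above every Media_IL33 array.

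mmu-miR-26b-5p had the same order of group means within a narrower span. Its relative signal in Media was 0.266, 0.233, 0.195 and 0.302, with a mean of 0.249 ± 0.0458 (SD, n = 4). In Th2 it was 0.351, 0.305, 0.286 and 0.243, with a mean of 0.296 ± 0.0445 (SD, n = 4). The 2 groups overlapped. In Media_IL33 it was 0.197, 0.208, 0.270 and 0.282, with a mean of 0.239 ± 0.0430 (SD, n = 4). In Th2_IL33 it was 0.268, 0.323, 0.252 and 0.272, with a mean of 0.279 ± 0.0305 (SD, n = 4). These groups overlapped too, since Media_IL33 4 lay above 3 of the Th2_IL33 arrays. For both members the order was Th2, Th2_IL33, Media and Media_IL33 from high to low. Neighbours in that order overlapped for both members, and the 2 neighbouring pairs that differ only by IL-33 did not pass the test given below.

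**Figure D1:**
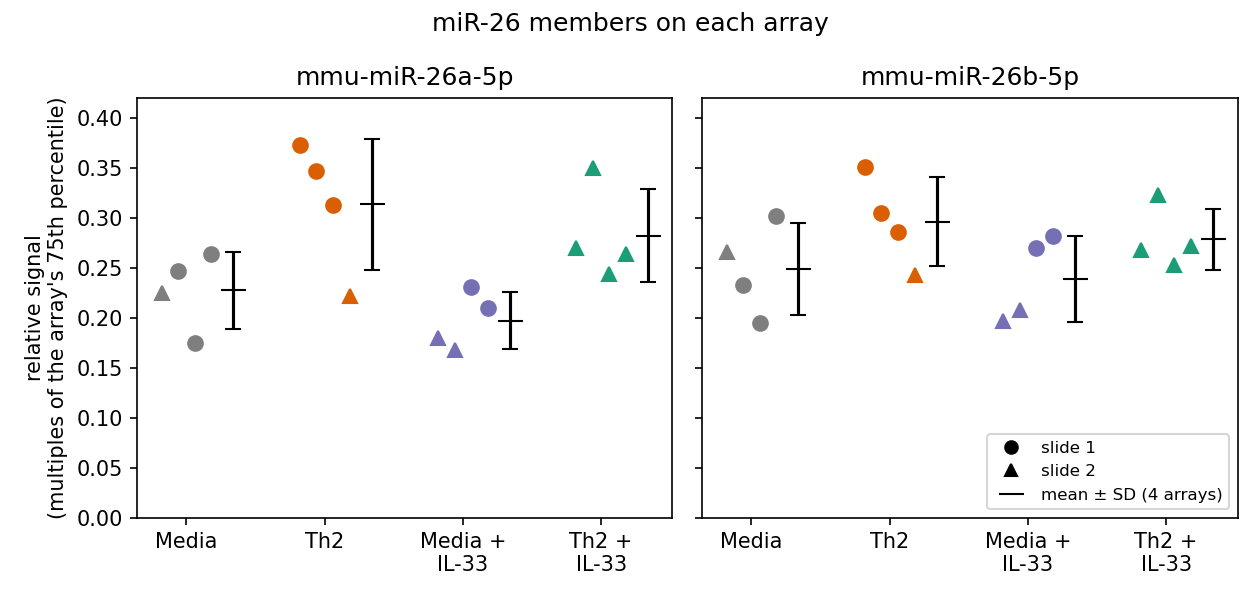
Relative signal of mmu-miR-26a-5p (left) and mmu-miR-26b-5p (right) on each array, as multiples of the array's 75th percentile, by group, with circles for slide 1, triangles for slide 2 and the mean ± SD of 4 arrays beside them. The miR-26a-5p signals of Th2_IL33 (0.244 to 0.350) lie above all those of Media_IL33 (0.168 to 0.231), while for miR-26b-5p these groups overlap. Neither difference passed in limma (adjusted p 0.107 and 0.452).

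The first question was whether growth in IL-4 and IL-13 changed the members, and whether it did so by the same amount. Across 231 miRNAs tested with limma, 22 of 231 (9.52%) passed an adjusted p (Benjamini-Hochberg) of 0.05 between Th2 and Media, 8.66% higher and 0.866% lower in Th2. Neither member was among them. miR-26a-5p differed by 0.45 ± 0.18 on the log2 scale (SE, n = 4 and 4), 1.37-fold, with a 95% confidence interval of 0.063 to 0.84 and an adjusted p of 0.141 in limma. It was higher in 3 of 4 experiments. miR-26b-5p differed by 0.26 ± 0.17 (SE), 1.20-fold, with an interval of -0.096 to 0.61 and an adjusted p of 0.380 in limma, also higher in 3 of 4 experiments. With normexp background correction the differences were 0.20 and 0.094. The array Th2 4 weighed on the value of miR-26a-5p: without it the difference of miR-26a-5p was 0.61 with an adjusted p of 0.0323 in limma.

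Under IL-33 the same comparison gave similar sizes. Between Th2_IL33 and Media_IL33, 22 of 231 miRNAs (9.52%) passed in limma, 8.23% higher and 1.3% lower in Th2_IL33. miR-26a-5p differed by 0.52 ± 0.18 (log2, SE), 1.43-fold, with an interval of 0.13 to 0.91 and an adjusted p of 0.107 in limma, and was higher in 4 of 4 experiments. Without Media 3, an array of neither group that enters only the shared estimate of spread, the adjusted p was 0.0495. miR-26b-5p differed by 0.23 ± 0.17 (log2, SE), 1.18-fold, with an interval of -0.12 to 0.59 and an adjusted p of 0.452 in limma, and was higher in 2 of 4 experiments. With normexp background correction the differences were 0.29 and 0.16.

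Averaged over both IL-33 states, the response to the Th2 cytokines passed the test for miR-26a-5p and not for miR-26b-5p. In this average 46 of 231 miRNAs (19.9%) passed in limma, 16% higher and 3.9% lower, and the median difference of all 231 was 0.096 on the log2 scale. miR-26a-5p rose by 0.48 ± 0.13 (log2, SE, 8 and 8 arrays), 1.40-fold, with a 95% confidence interval of 0.21 to 0.76 and an adjusted p of 0.0142 in limma. It was higher in 7 of 8 pairs of arrays that the labels give the same experiment letter, and these 8 come from 4 experiments. In bulk RNA a change in every cell and a change in the share of cells that hold the miRNA cannot be told apart. miR-26b-5p differed by 0.25 ± 0.12 (log2, SE), 1.19-fold, with an interval of -0.0047 to 0.50 and an adjusted p of 0.160 in limma, and was higher in 5 of 8 pairs. The interval of miR-26b-5p holds both no change and the size found for miR-26a-5p. With normexp background correction, an offset method that pulls dim signals together, the average was smaller, at 0.25 for miR-26a-5p (adjusted p 0.0222) and 0.13 for miR-26b-5p (adjusted p 0.155 in limma). The call of miR-26a-5p was kept when any 1 array was left out (0.42 to 0.56, adjusted p 0.00295 to 0.0382 in limma). It was lost without the 3 arrays that stood apart (0.34, adjusted p 0.0719) and under quantile normalization (0.42, adjusted p 0.0919).

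**Figure D2:**
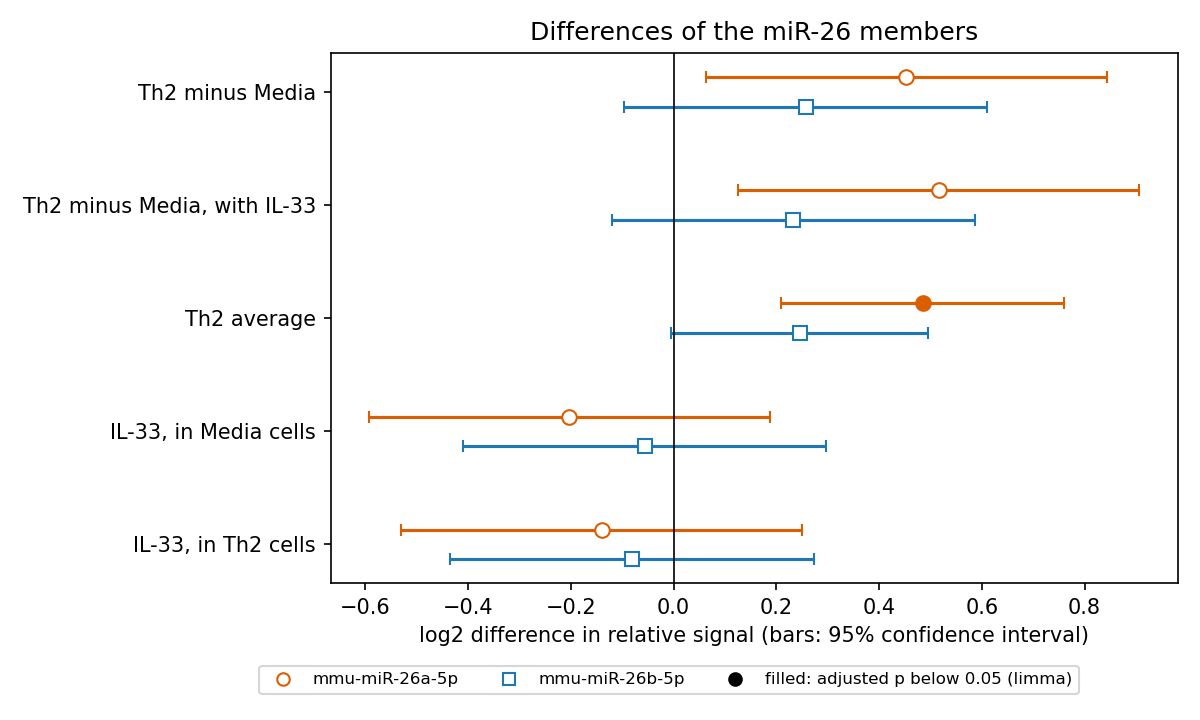
Log2 differences in relative signal from limma for mmu-miR-26a-5p (circles) and mmu-miR-26b-5p (squares) in 5 comparisons, with 95% confidence intervals. The filled point, miR-26a-5p in the Th2 average (0.48), is the 1 difference with an adjusted p below 0.05, and the IL-33 differences all span 0.

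The arrays came from 2 slides that do not split evenly over the groups, and all 4 Th2_IL33 arrays were on slide 2. In Th2 the 3 arrays on slide 1 read 0.313 to 0.373 for miR-26a-5p and the array on slide 2 read 0.222. In Media_IL33 the slide 1 arrays read 0.210 and 0.231 and the slide 2 arrays 0.168 and 0.179. In Media the slide 2 array read 0.225, inside the slide 1 range of 0.175 to 0.263. With slide as a block in limma, the Th2 average of miR-26a-5p was 0.57 (log2, adjusted p 0.00374) and that of miR-26b-5p was 0.31 (adjusted p 0.0798). With slide and experiment both as blocks, miR-26b-5p reached 0.33 with an adjusted p of 0.0469. Under the slide block Th2_IL33 stood above Media_IL33 by 0.68 for miR-26a-5p (adjusted p 0.0253) and by 0.35 for miR-26b-5p (adjusted p 0.271). Within slide 1, Th2 stood above Media by 0.61 for miR-26a-5p (adjusted p 0.0904) and by 0.39 for miR-26b-5p (adjusted p 0.268). Within slide 2, where each of these groups has 1 array, the differences were -0.018 and -0.13. Within slide 2, Th2_IL33 stood above Media_IL33 by 0.69 for miR-26a-5p (adjusted p 0.0496) and by 0.46 for miR-26b-5p (adjusted p 0.0931), and the Th2 average, which there rests in part on the single Media and Th2 arrays, was 0.33 (adjusted p 0.329) and 0.16 (adjusted p 0.615).

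Whether the members responded by different amounts was tested on the difference of their log2 signals on the same array, in which the array's scaling cancels. Its size on 1 array depends on the probes and carries no level, so only changes between groups are read from it. In replicates 1 to 4 this log ratio was -0.25, 0.086, -0.15 and -0.20 in Media and 0.088, 0.19, 0.13 and -0.13 in Th2. In Media_IL33 it was -0.13, -0.31, -0.23 and -0.43, and in Th2_IL33 it was 0.011, 0.12, -0.047 and -0.042. In each of the 4 experiments the Th2 culture had the higher ratio, with and without IL-33, and the Th2_IL33 and Media_IL33 values did not overlap.

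Over both IL-33 states, miR-26a-5p rose by 0.24 ± 0.063 (log2, SE) more than miR-26b-5p, 1.18-fold, in 8 of 8 pairs. The exact two-sided permutation test gave p = 0.00286, or 0.0143 after Benjamini-Hochberg adjustment over the 5 comparisons of the ratio. Without IL-33 the difference of responses was 0.20 ± 0.10 (SE, 4 of 4 pairs; exact permutation p = 0.0571, adjusted 0.0952). With IL-33 it was 0.28 ± 0.073 (SE, 4 of 4 pairs; exact permutation p = 0.0286, the smallest that 4 against 4 arrays can give, adjusted 0.0714). With normexp background correction the average was 0.12, with an adjusted p of 0.0102 in the exact permutation test, and the single comparisons gave 0.10 and 0.14. Permuted within slides, the average was 0.21 with an adjusted p of 0.00833 in the exact permutation test. Without the 3 arrays that stood apart it was 0.19 (adjusted p 0.143, exact permutation), and under quantile normalization it was 0.20 (adjusted p 0.0714, exact permutation).

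**Figure D3:**
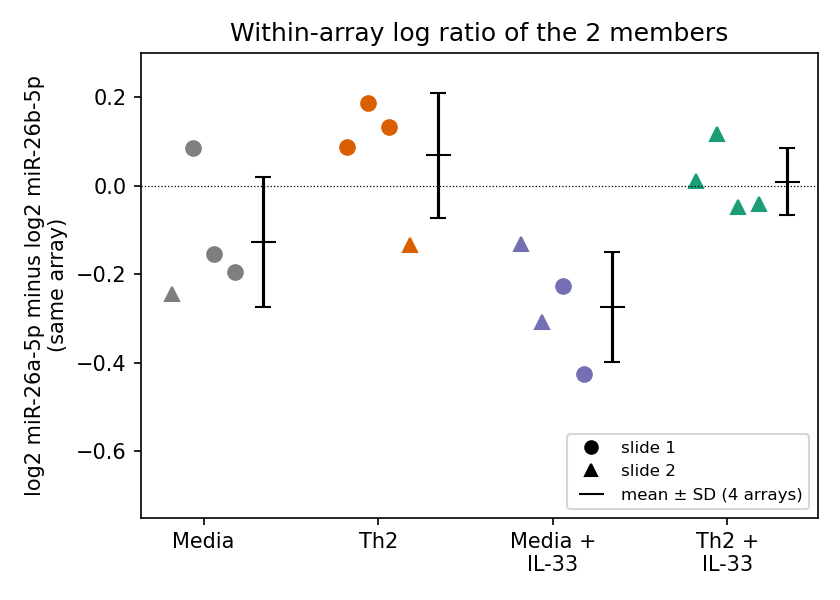
Log2 signal of mmu-miR-26a-5p minus that of mmu-miR-26b-5p on the same array, by group, with circles for slide 1, triangles for slide 2 and the mean ± SD of 4 arrays. Group means are -0.13 in Media, 0.069 in Th2, -0.27 in Media_IL33 and 0.0096 in Th2_IL33, and the Media_IL33 arrays all lie below the Th2_IL33 arrays.

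The probes of a member gave similar responses when each was used alone. The longer probe of each member holds all of the shorter one and both read the same RNA, so their likeness is not independent support. For miR-26a-5p the Th2 average was 0.49 (log2, adjusted p 0.0263 in limma) with the 15-base probe and 0.48 (adjusted p 0.0118) with the 16-base probe. For miR-26b-5p it was 0.26 (adjusted p 0.146 in limma) with the 19-base probe and 0.24 (adjusted p 0.183) with the 20-base probe. The difference between members was 0.22 to 0.26 over the 4 pairings of a probe of each. In the exact permutation test it kept an adjusted p below 0.05 against the 20-base probe (0.0204 and 0.0184) and not against the 19-base probe (0.109 and 0.0714).

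Neither member passed the test for a response to 4 h of IL-33. Between Media_IL33 and Media, 4 of 231 miRNAs (1.73%) passed in limma, and between Th2_IL33 and Th2 4 of 231 (1.73%) did. In medium-grown cells miR-26a-5p differed by -0.20 ± 0.18 (log2, SE), with an interval of -0.59 to 0.19, and it ran from -0.32 without Media 3 to -0.13 without Media 4. There miR-26b-5p differed by -0.056 ± 0.17, with an interval of -0.41 to 0.30. In Th2-grown cells miR-26a-5p differed by -0.14 ± 0.18, with an interval of -0.53 to 0.25, and miR-26b-5p by -0.081 ± 0.17, with an interval of -0.43 to 0.27. The adjusted p was 1 for each of the 4 in limma, and the sign of the values in Th2-grown cells turned with slide as a block (0.11 and 0.10). The log ratio of the members changed by -0.15 in medium-grown cells (exact permutation p = 0.229, adjusted 0.286) and by -0.059 in Th2-grown cells (exact permutation p = 0.486, adjusted 0.486). For the interaction, the test of whether the Th2 response differs between IL-33 states, no miRNA passed in limma (0%), and 5 had an unadjusted p under 0.05. The interaction was 0.063 ± 0.26 (log2, SE) for miR-26a-5p and -0.024 ± 0.23 for miR-26b-5p, each with an adjusted p of 0.995 in limma.

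The opposite arms of the 3 hairpins were at background. A hairpin's other arm is usually degraded once the guide strand is loaded. The RefSeq sequences of these arms are given because each names its locus, which the guide of the Mir26a hairpins does not.
mmu-miR-26a-1-3p: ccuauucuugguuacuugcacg
mmu-miR-26a-2-3p: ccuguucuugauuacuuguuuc
mmu-miR-26b-3p: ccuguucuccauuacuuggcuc
All 3 have probes on the array, and each was called detected on 0 of 16 arrays. The highest relative signal of any of them was 0.0242, in miR-26b-3p in Th2_IL33, under 0.0353, the floor to which lower signals were raised. Since the arms of Mir26a-1 and Mir26a-2 are the array's only separate readout of those loci, the array does not show how much of miR-26a-5p came from each.

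The 2 members moved together from array to array. Over 16 arrays their log2 relative signals correlated with a Pearson r of 0.888 (permutation p = 2e-05, 100000 resamples) and a Spearman rho of 0.8294 (permutation p = 1e-04). Without Th2 1 and Media_IL33 2, the arrays farthest from the median of miR-26a-5p, r was 0.834, and after subtraction of the group means it was 0.877. Both signals on an array share its RNA, labelling and scaling, which enter this correlation.

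**Figure D4:**
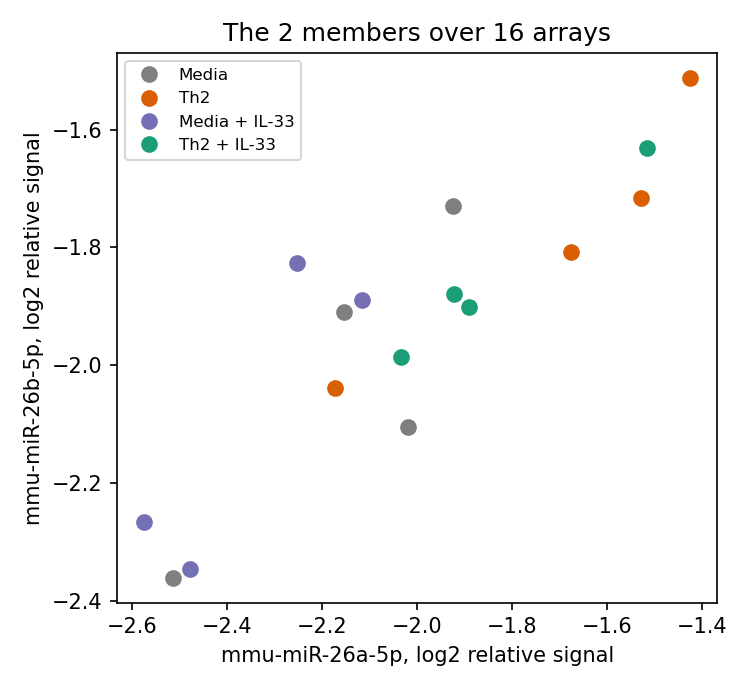
Log2 relative signal of mmu-miR-26b-5p against that of mmu-miR-26a-5p on 16 arrays, coloured by group. The points rise together (Pearson r 0.888), and after subtraction of the group means r was 0.877.

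The miRNAs most like each member over the 16 arrays included the other member, the only one that could share its seed. By Pearson r, the 5 closest to miR-26a-5p other than its family member were miR-1839-3p (0.904), miR-30c-5p (0.900), miR-181a-5p (0.885), miR-378d (0.880) and miR-30b-5p (0.879), and miR-26b-5p ranked 3 among all. The 5 closest to miR-26b-5p were miR-16-5p (0.908), miR-107-3p (0.884), miR-1839-3p (0.881), miR-199a-3p (0.878) and miR-23a-3p (0.878), and miR-26a-5p ranked 2 among all. In the Th2 average 46 of 231 miRNAs tested (19.9%) passed in limma. All 5 companions of miR-26a-5p were among them, from 0.36 for miR-30c-5p to 1.23 for miR-378d. Of the 5 companions of miR-26b-5p, miR-1839-3p (0.37) and miR-199a-3p (0.50) passed, and miR-16-5p was at 0.14 (adjusted p 0.391 in limma). These correlations use all arrays, so they include the response to the cytokines as well as the scaling. The calls of the companions thus follow in part from how they were picked. After subtraction of the group means, r with miR-26a-5p ran from 0.744 (miR-30b-5p) to 0.915 (miR-378d) over its 5 companions. For miR-26b-5p it ran from 0.827 (miR-23a-3p) to 0.910 (miR-16-5p).

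Some of the other miRNAs that Myc is known to repress also rose in Th2-grown cells. The list holds 26 such miRNAs without the miR-26 members, of which 23 were tested, and 11 of 23 rose and 0 fell in the Th2 average, where 16% of all miRNAs tested rose. Their median difference was 0.36 on the log2 scale, against 0.096 for all 231, and 22 of 23 were above 0, as were 57.6% of all 231. The 11 are not 11 separate observations, since let-7 (a and c), miR-29 (a and c) and miR-30 (b, c and d) each supply more than 1. Among the 11 were miR-125b-5p (0.74 ± 0.11, SE, adjusted p 0.000168 in limma), whose genes lie in clusters with let-7, and the p53-induced miR-34a-5p (0.79 ± 0.12, adjusted p 0.000168). let-7c-5p, which represses growth regulators such as Hmga2, rose by 0.67 ± 0.11 (adjusted p 0.000212 in limma) and miR-22-3p by 0.69 ± 0.12 (adjusted p 0.000344). The relative signal of miR-125b-5p was 2.35 ± 0.412 (SD, n = 4) in Media, 3.92 ± 0.475 in Th2, 2.36 ± 0.308 in Media_IL33 and 3.90 ± 0.568 in Th2_IL33. miR-26a-5p at 0.48 lay inside the span of the 11, and miR-26b-5p at 0.25 lay below all of them. The 11 are those that passed, so a miRNA that did not pass tends to lie below them. Both members lay inside the span of all 23, from -0.087 for let-7e-5p to 0.79 for miR-34a-5p.

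The single comparisons gave fewer calls on this list. Between Th2 and Media 5 of 23 rose, where 8.66% of all miRNAs tested did, and between Th2_IL33 and Media_IL33 5 of 23 rose, where 8.23% did. Scaled to the percentile over all miRNAs, 0 of 23 rose in either. Between Th2_IL33 and Media_IL33, 9 rose without Media 3, 8 without Th2_IL33 3 and 13 with array weights. Within slide 2, with 1 Th2 and 1 Media array, 9 of 23 were above 0 between those groups and their median was -0.096. Of 23, 1 rose with IL-33 in each growth condition, miR-146a-5p, which NF-kB induces and which represses Traf6 and Irak1, by 1.08 ± 0.16 in medium-grown cells (log2, SE, adjusted p 0.000804 in limma) and 0.90 ± 0.16 in Th2-grown cells (adjusted p 0.00366). In the Th2 average 9 of 23 rose without the 3 arrays that stood apart, 5 under quantile normalization, 5 with all-miRNA scaling and 0 within slide 2.

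**Figure D5:**
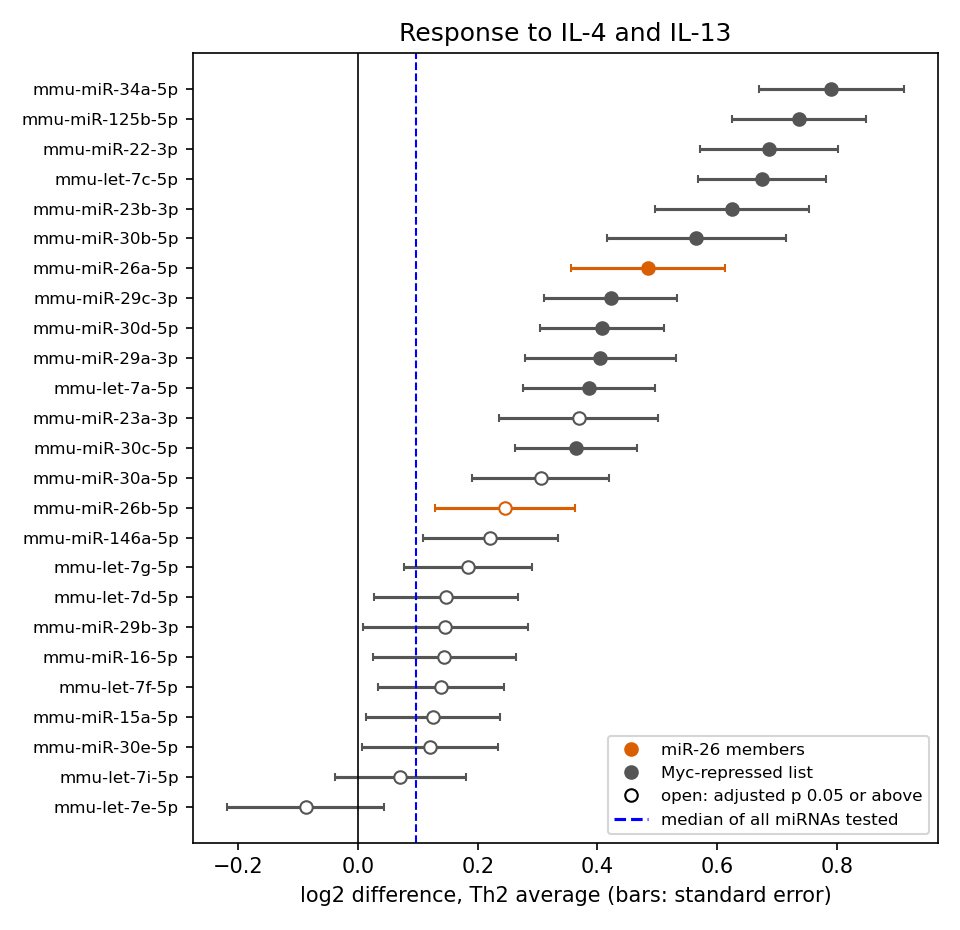
Log2 difference of the Th2 average with its standard error for the 23 tested miRNAs of the Myc-repressed list (grey) and the 2 miR-26 members (orange), filled where the adjusted p in limma is below 0.05, with the median of all 231 miRNAs as a dashed line. miR-26a-5p (0.48) sits among the 11 filled points of the list, and miR-26b-5p (0.25) sits below them. Both sit inside the span of all 23 (-0.087 to 0.79).

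Few of the other miRNAs that target Ezh2 could be read. Of a list of 9 (miR-101, let-7, miR-98, miR-124, miR-138 and miR-214), 8 were on the array and 4 were tested. In the Th2 average, where 16% of all miRNAs tested rose, 2 of these 4 rose, let-7c-5p (given above) and let-7a-5p (0.39 ± 0.11, log2, SE, adjusted p 0.0219 in limma). let-7b-5p was at 0.28 (adjusted p 0.0897) and miR-98-5p at -0.050 (adjusted p 0.657). The median of the 4 was 0.33, and both let-7 members that rose also stand on the Myc list. Ezh2 itself and other messenger RNAs were not measured on these arrays.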

How the data were processed

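Per the labels, 100 ng of total RNA was labelled with Cy3. Per the file headers, Agilent Feature Extraction 10.7.3.1 made the scanner output, in which the deposited values are spot intensities corrected for background and spatial trend and not normalized across arrays. A second table by the authors holds probe intensities, made with Partek 6.6 and RMA per the submitters' processing notes and quantile normalized on a linear scale by its values. It was used as an alternative.

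Outlier and control spots were dropped, spots averaged per probe and probes summed per miRNA. Signals were divided by the array's 75th percentile over 178 miRNAs detected on all arrays, floored at 0.0353 and log2 transformed. The 231 miRNAs detected on all 4 arrays of a group were fitted with limma 3.58.1 in R 4.3.3 over 4 group means, with 12 residual degrees of freedom before moderation. The log ratio was tested by exact permutation of arrays. On simulated data for the Th2 average of 231 miRNAs, 15 of 20 changes of 0.5 (log2) and 19 of 20 of 1.5 were called, and 1 of 191 unchanged miRNAs. With arrays, their number limits the precision.

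The labels give arrays of the same number the same experiment letter in all 4 groups, which pairs them across groups. Deviations of same-numbered arrays correlated at means of -0.096, -0.071, 0.34 and 0.20, and 10 of 16 arrays correlated best with their own number. The text names the 2 members, their 3 opposite arms, the 5 miRNAs with the highest r to each, and up to 4 miRNAs per list and comparison by adjusted p. Further named miRNAs were chosen after their values were seen. Members, lists and alternatives were chosen with earlier results of these data known. Alternatives were other scalings, filters, background corrections, blocks, probes and left-out arrays.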

Additional observations from a re-analysis of the deposited data

How the results depend on the processing

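The replicate block changed no call of a member: the paired fit in limma gave miR-26a-5p 0.48 (adjusted p 0.0244) and miR-26b-5p 0.25 (adjusted p 0.186) in the Th2 average. The paired exact permutation test of the ratio gave an adjusted p of 0.0391. That test treats the pairs with and without IL-33 from 1 experiment as independent, so the experiment is not its unit. The Th2 average of miR-26a-5p lost its call when scaled to the percentile over all miRNAs (0.44), under quantile normalization (0.42), with no filter (0.48, more miRNAs tested), in the authors' table (0.43), within slide 2 (0.33, with 1 Media and 1 Th2 array) and without the 3 arrays that stood apart (0.34), at adjusted p 0.0719 to 0.329. Its Th2_IL33 against Media_IL33 difference gained a call with slide block (0.68), slide and replicate block (0.74), array weights (0.53) and within slide 2 (0.69), with 0.41 to 0.60 over left-out arrays. Its Th2 against Media difference gained one with array weights (0.44), ran from 0.33 to 0.61 over left-out arrays, and was -0.018 within slide 2 (miR-26b-5p -0.13). miR-26b-5p gained a call in the Th2 average with slide and replicate block (0.33). The ratio's Th2 average lost its call under quantile normalization (0.20), without the 3 arrays (0.19), and with the 19-base probe (0.23 and 0.22). Without a stated value above, the cause of these changes was not tested.

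Values that never passed changed sign in places. Th2_IL33 against Th2 became positive with slide block (0.11 for miR-26a-5p, 0.10 for miR-26b-5p), slide and replicate block (0.20, 0.18) and within slide 2 (0.33, 0.19), and for miR-26b-5p with all-miRNA scaling (0.026) and the authors' table (0.022), ranging from -0.17 to 0.0048 over left-out arrays. The ratio's value for that comparison within slide was 0.14. Media_IL33 against Media for miR-26b-5p was 0.033 with all-miRNA scaling, 0.060 with total gene signal, 0.0037 with slide block, 0.030 with slide and replicate block and 0.21 within slide 1, and -0.17 to 0.042 over left-out arrays. For miR-26a-5p that comparison stayed below 0, at -0.42 with array weights, -0.38 without the 3 arrays and -0.32 to -0.13 over left-out arrays. The interaction of miR-26a-5p was -0.063 with total gene signal and -0.095 to 0.18 over left-out arrays. That of miR-26b-5p was 0.013 (quantile), 0.062 (normexp), 0.093 (authors' table), 2.5e-05 (probe 2 alone), 0.096 (slide block), 0.15 (slide and replicate block), 0.068 (array weights), 0.59 (within slide 2) and 0.012 (without the 3 arrays), and -0.12 to 0.087 over left-out arrays. All values are log2 differences from limma or, for the ratio, of array means.

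Calls in the Th2 average numbered 46 with the settings used, 25 with no filter, 71 with slide and replicate block, 98 with array weights and 10 within slide 2. Calls between Th2_IL33 and Media_IL33 numbered 22, and 36 without Media 3. Another scaling moved the median Th2 average of all miRNAs from 0.096 to 0.054 (all-miRNA percentile), 0.0030 (quantile) and -0.033 (authors' table). Both members stayed above 0 under each of these.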
